A study of Homo sapiens with 2 samples.

Results

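The genes described here are 10 genes of the Notch pathway in HSC-3 cells grown on Myogel or on plastic: the receptors NOTCH1, NOTCH2 and NOTCH3, the ligands JAG1, JAG2 and DLL1, the coactivator MAML1, the inhibitor NUMB and the targets HES1 and HEY1. They were chosen by name, and a probe set was taken for a gene when the annotation of the array gave that gene symbol and no other. This gave 25 of 54613 probe sets and 10 of 19775 genes. The HSC-3 line was derived from a squamous carcinoma of the human tongue and is well established, here carrying a red fluorescent protein from a lentivirus with a non-coding control sequence and kept in medium with 10% serum. Myogel is a protein extract of human uterine leiomyoma, a benign smooth muscle tumour, used as a coating, and the comparison asks whether the coating changes gene expression relative to uncoated wells. For each surface 90000 cells were seeded, RNA of 3 wells was pooled the next day, and 1 Affymetrix Human Genome U133 Plus 2.0 array was hybridised, so that there was 1 array for Myogel and 1 for plastic. A treatment protocol in the labels names uncoated plates for both samples, while the titles and the methods give a Myogel coating for one of them.

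Notch receptors sit in the cell membrane and bind ligands of the Jagged and Delta-like families on neighbouring cells. Binding lets proteases cut the receptor, and its intracellular part moves to the nucleus, where it joins the DNA-binding protein RBPJ and a Mastermind coactivator and switches on targets such as the HES and HEY repressors. In stratified epithelia the pathway is known for its part in differentiation, and in squamous carcinomas NOTCH1 is often lost by mutation.

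The values were linear intensities with a floor of 1, and the median over the 54613 probe sets was 52.5 on Myogel and 59.7 on plastic. The fold change (FC) was the Myogel value over the plastic value, which on the log2 scale had a median of -0.11 across the array. With 1 array per surface there is no replicate check, no p-value can be given, and the number of arrays limits the precision. The spread was therefore described for each probe set by the range that held 95% of the log2 FCs of the 1000 probe sets nearest in signal. Of 8 squamous epithelial markers 5 were measured, and KRT5, KRT14, CDH1, EPCAM and SFN had values of 3993 or more on Myogel and 4385 or more on plastic, and none had FC 1.5 or more. For the cell types of the leiomyoma, the summed values of 7 smooth muscle markers were 1469 on Myogel and 1419 on plastic, with CNN1 at the floor on Myogel and LMOD1, the one marker higher by FC 1.5, at 30.9 on Myogel and 14.3 on plastic. The sums of 7 fibroblast markers were 719 on Myogel and 717 on plastic, those of 7 endothelial markers 363 on Myogel and 446 on plastic, with 2 higher and 4 lower by FC 1.5, and those of 5 measured blood markers 657 on Myogel and 683 on plastic. In a bulk sample, fewer cells of a type and less RNA per cell cannot be told apart.

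Most of the probe sets of the 10 genes gave values within FC 1.5 on the 2 surfaces. FC 1.5 or more was met upwards by 1 of the 25 probe sets and downwards by 4, while 13.8% of all probe sets on the array met it upwards and 24.2% downwards. The other 20 lay within FC 1.5. After quantile normalization or loess centring 2 met the limit upwards and 2 downwards. Of all 54613 probe sets, 9953 met it upwards and 9955 downwards after quantile normalization, and 9957 and 9928 after loess centring. By the looser limit of FC 1.2, 4 had the higher and 10 the lower value on Myogel, against 22.4% and 38.3% of all. The median log2 FC was -0.12 over the 25 probe sets and -0.11 over all probe sets. None of the 25 lay outside the range for its signal, beside 2.19% of all probe sets above and 2.16% below theirs. None combined FC 1.5 or more with a difference of at least 100 linear units, which 0.65% of all probe sets did upwards and 0.916% downwards. The 5 probe sets with FC 1.5 or more were dim. At or above the median signal 0 of 20 were higher and 1 was lower by this limit, beside 3.46% and 7.88% of all probe sets there, and below the median signal 1 of 5 was higher and 3 were lower, beside 24.2% and 40.5%. Among 15 probe sets with a value of 100 or more on both arrays, 0 passed FC 1.5, against 1.87% higher and 3.3% lower among all 20686 such probe sets, and their log2 FCs ran from -0.48 to 0.58.

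**Figure D1:**
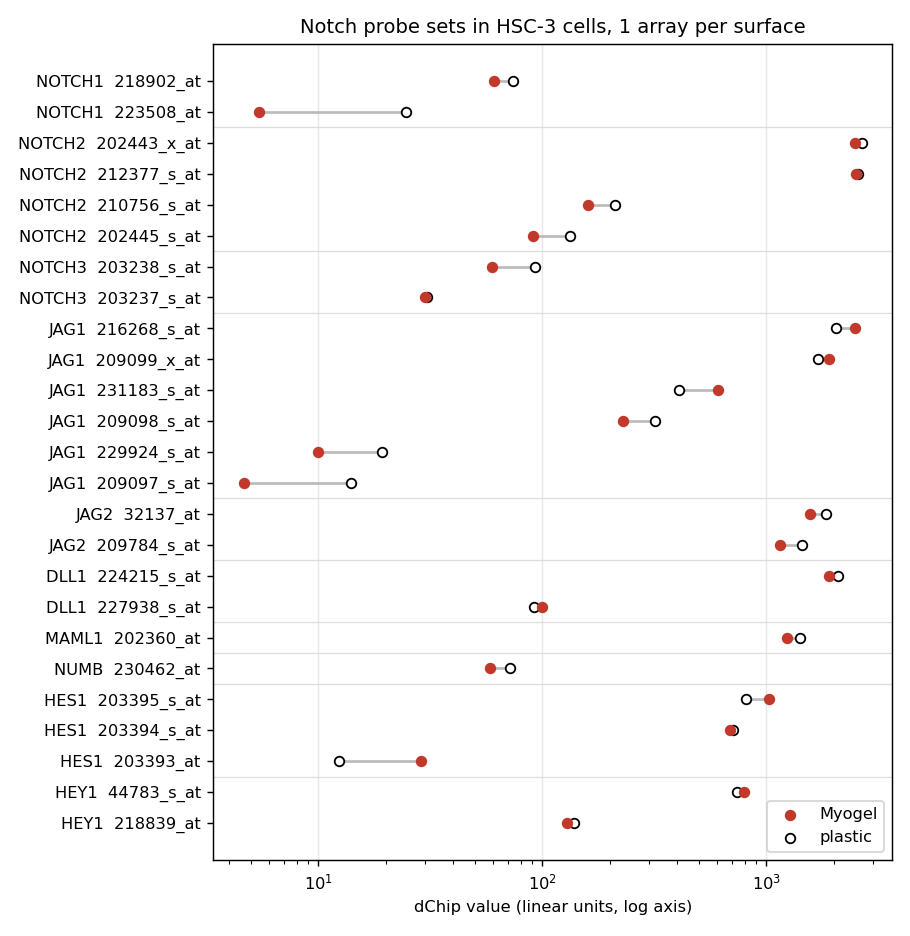
Value of each of the 25 Notch probe sets (x axis, linear units on a log scale) on the Myogel array (red) and on the plastic array (white), grouped by gene, with 1 array per surface. The pairs lie close together above 1000 units, and the widest gaps are those of dim probe sets such as 223508_at of NOTCH1, with 5.41 on Myogel and 24.7 on plastic.

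NOTCH1, a receptor that restrains growth in squamous epithelium, had dim signals on both surfaces. Its brighter probe set 218902_at had a value of 60.8 on Myogel and 73.8 on plastic, a log2 FC of -0.28 within a range of -1.28 to 1.16. The dimmer one, 223508_at, had 5.41 on Myogel and 24.7 on plastic, which is a log2 FC of -2.19, the lowest of the 25. At this brightness the range ran from -3.50 to 2.96, so that the difference did not stand out from those of other probe sets of like signal.

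NOTCH2 had 4 probe sets, of which 2 were bright. The brightest, 202443_x_at, had 2487 on Myogel and 2661 on plastic, and 212377_s_at had 2525 on Myogel and 2575 on plastic. Their log2 FCs of -0.10 and -0.03 lay inside ranges of -0.38 to 0.38. Both thus gave nearly the same value on the 2 surfaces. The dimmer 210756_s_at had 159 on Myogel and 211 on plastic, and 202445_s_at had 91.3 on Myogel and 133.04 on plastic, with log2 FCs of -0.40 and -0.54. The human genome holds partial copies of NOTCH2, the NOTCH2NL genes, and probe sets ending in _x_at or _s_at may also detect related transcripts, so these values may include RNA of the copies. A further probe set that the annotation assigns to NOTCH2 and to its copies was left out.

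NOTCH3, a receptor best known from vascular smooth muscle, was the gene among the 10 whose brightest probe set passed FC 1.5. This probe set, 203238_s_at, had 59.6 on Myogel and 93.1 on plastic, which is 1.56-fold lower (log2 FC -0.64) within a range of -1.18 to 0.93. The other, 203237_s_at, had 30.1 on Myogel and 30.7 on plastic and thus did not show the difference. The difference of 203238_s_at itself fell short of FC 1.5 with a log2 FC of -0.49 after quantile normalization, -0.45 after loess centring, -0.54 with the median log2 ratio of all probe sets set to 0, -0.53 with an offset of 16 added to both values and -0.38 with an offset of 50.

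All 8 receptor probe sets had the lower value on Myogel, as had 59.6% of all probe sets. Their median log2 FC was -0.34. After quantile normalization 6 of the 8 were lower and after loess centring 7. With the median log2 ratio of all probe sets set to 0 there were 5. Of all probe sets 50.5%, 50.4% and 50.0% were lower with these scalings. The receptor medians were then -0.20, -0.19 and -0.23. The direction shared by the receptors therefore depended on the scaling for up to 3 of the 8.

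**Figure D2:**
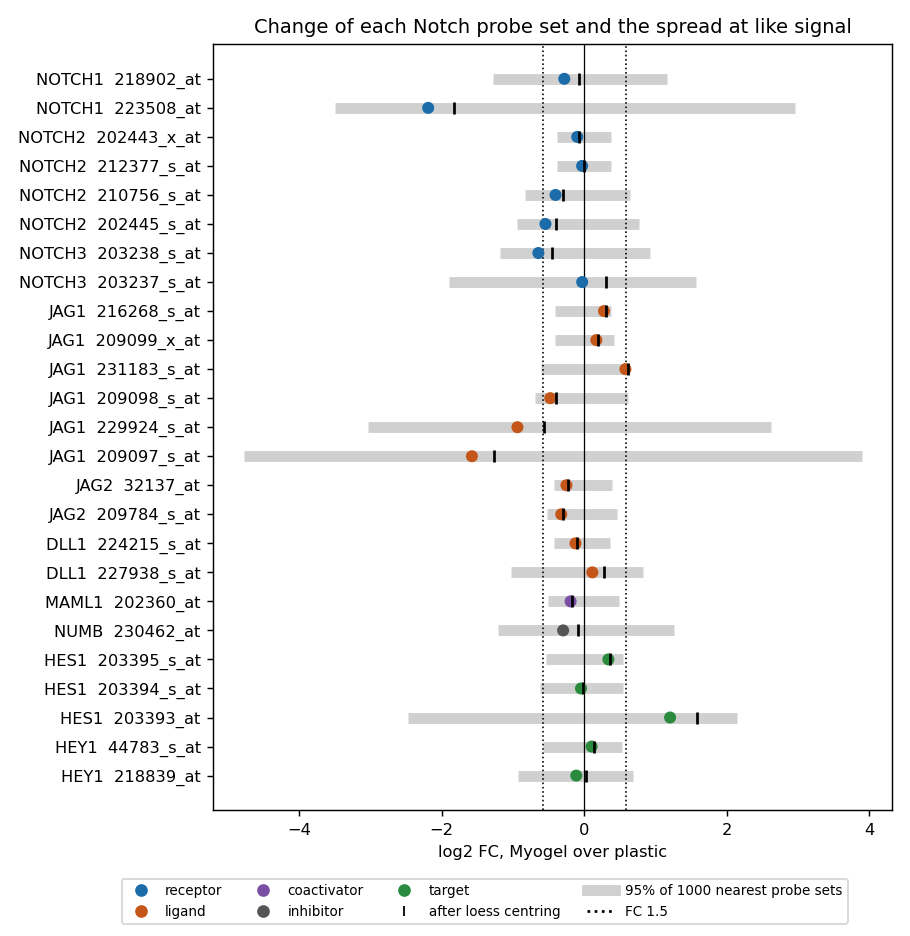
The log2 FC of Myogel over plastic (x axis) for each of the 25 probe sets, coloured by the role of the gene, with black ticks after loess centring, grey bars for the range of 95% of the 1000 probe sets nearest in signal (values as deposited) and dotted lines at FC 1.5. Each coloured point lies on its grey bar, and 231183_s_at of JAG1 (0.58) comes near to the upper end of its bar (0.64).

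The ligand JAG1, a Jagged protein of epithelial and vascular cells, had the higher value on Myogel in its 3 brightest probe sets and the lower value in its 3 dimmest. The brightest, 216268_s_at, had 2479.5 on Myogel and 2044 on plastic (log2 FC 0.28, range -0.41 to 0.38). Next came 209099_x_at with 1913 on Myogel and 1699 on plastic (log2 FC 0.17). The third, 231183_s_at, had 611 on Myogel and 409 on plastic, which is 1.49-fold higher, just short of FC 1.5, with a log2 FC of 0.58 in a range of -0.61 to 0.64.

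The other JAG1 probe sets went the opposite way. Probe set 209098_s_at had 228 on Myogel and 318 on plastic (log2 FC -0.48, range -0.70 to 0.61). The remaining ones, 229924_s_at with 10.02 on Myogel and 19.2 on plastic and 209097_s_at with 4.67 on Myogel and 13.9 on plastic, were 1.92-fold and 2.98-fold lower at signals where the ranges spanned -3.04 to 2.62 and -4.78 to 3.90. The log2 FCs of the 6 JAG1 probe sets thus covered 2.16, the widest span among the 10 genes. Of 326 genes with 6 probe sets, 5.21% had all of them on one side of no change.

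JAG2, the other Jagged ligand, had the lower value on Myogel in both of its probe sets. Probe set 32137_at had 1559.7 on Myogel and 1854 on plastic, and 209784_s_at had 1156 on Myogel and 1445 on plastic. Their log2 FCs of -0.25 and -0.32 differed by 0.07, and lay inside ranges of -0.43 to 0.39 and -0.52 to 0.47. They stayed below 0 with each of the scalings tried. In the brightest probe sets the log2 FC of JAG1 exceeded that of JAG2 by 0.53, a difference that could not be tested.

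DLL1, a ligand of the Delta-like family, gave nearly the same values on both surfaces. Probe set 224215_s_at had 1913 on Myogel and 2082 on plastic (log2 FC -0.12), and 227938_s_at had 99.7 on Myogel and 92.1 on plastic (log2 FC 0.11). Over the 10 ligand probe sets, 4 had the higher and 6 the lower value on Myogel. This split was 4 and 6 with each of the 3 other scalings as well. Of all probe sets 59.6% were lower as deposited, 50.5% after quantile normalization, 50.4% after loess centring and 50.0% with the median set to 0.

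MAML1, the Mastermind coactivator that binds the receptor fragment and RBPJ, was measured by 202360_at with 1237 on Myogel and 1412 on plastic. Its log2 FC of -0.19 lay inside a range of -0.51 to 0.49. NUMB, an adaptor that directs receptors to endocytosis and limits signaling, was measured by 230462_at with 58.6 on Myogel and 71.9 on plastic, a log2 FC of -0.30 in a range of -1.21 to 1.26. A further 3 probe sets match NUMB and a second locus and were left out, so that the value of NUMB rests on 1 dim probe set.

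HES1, a repressor and the classic target of Notch, had the higher value on Myogel in 2 of 3 probe sets. The brightest, 203395_s_at, had 1028 on Myogel and 812 on plastic, which is 1.27-fold higher, with a log2 FC of 0.34 in a range of -0.54 to 0.54. The similarly bright 203394_s_at had 689.8 on Myogel and 711 on plastic (log2 FC -0.04) and did not show this. The dim 203393_at had 28.7 on Myogel and 12.4 on plastic, a 2.31-fold difference in a range of -2.48 to 2.14 (log2), and was the probe set counted above as higher by FC 1.5.

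The promoter of HES1 is shown because it carries 2 copies of the core letters TGGGAA that RBPJ is known to bind. It is taken from the RefSeq gene models of GRCh38.p14, chr3:194135898-194136197 on the plus strand, from 250 bases before the start of the gene to 50 after it, with the core letters in capitals.
HES1 promoter: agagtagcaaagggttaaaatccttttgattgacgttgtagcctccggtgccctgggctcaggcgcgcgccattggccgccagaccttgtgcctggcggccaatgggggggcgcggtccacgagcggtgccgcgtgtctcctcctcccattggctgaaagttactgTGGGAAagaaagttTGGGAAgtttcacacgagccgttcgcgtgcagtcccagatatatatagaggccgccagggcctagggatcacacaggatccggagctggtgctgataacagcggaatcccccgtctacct
The copies begin at positions -84 and -70 from the start, with 8 bases between them. Searched on both strands, the letters stood in 24.0% of 35116 promoter windows of this length, and at least 2 copies stood in 3.8%. Of the 8 described genes with a window in the table, HES1 alone held a match. HEY1 and DLL1 had no window and were not searched. Among HES1 and 7 other HES and HEY genes with a window, 5 held at least 1 match. Of these, 4 held 2 matches, namely HES1, HES5, HEY2 and HEYL, so that 2 copies are not particular to HES1.

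For comparison, 40 bases around the core letters are shown for the 3 other genes of the family with a match on the gene's strand between 100 and 70 bases before the start, again with the match in capitals and all on the minus strand of GRCh38.p14: HES4 at chr1:1000151-1000190, HES5 at chr1:2530321-2530360 and HEYL at chr1:39639720-39639759.
HES4: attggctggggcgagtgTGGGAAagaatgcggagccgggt
HES5: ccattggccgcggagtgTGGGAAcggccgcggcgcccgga
HEYL: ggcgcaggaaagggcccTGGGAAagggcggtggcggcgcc
The matches begin at positions -76, -80 and -99. The genes that share these letters were dim and did not go one way: HES4 had 42.0 on Myogel and 62.9 on plastic, HES5 had 25.5 on Myogel and 36.2 on plastic, and HEYL had 6.63 on Myogel and stood at the floor of 1 on plastic. A match describes the sequence and is not a measurement of binding.

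HEY1, a repressor related to HES1, gave nearly the same values on both surfaces. Probe set 44783_s_at had 792 on Myogel and 737 on plastic (log2 FC 0.10), and 218839_at had 128 on Myogel and 138 on plastic (log2 FC -0.11). Over the 5 probe sets of HES1 and HEY1, 3 had the higher value on Myogel and the median log2 FC was 0.10. After quantile normalization, loess centring or setting the median to 0 there were 4, with medians of 0.12, 0.13 and 0.21. Of all 54613 probe sets, 21650 were higher as deposited, and 26722, 27098 and 27306 with these scalings in turn.

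**Figure D3:**
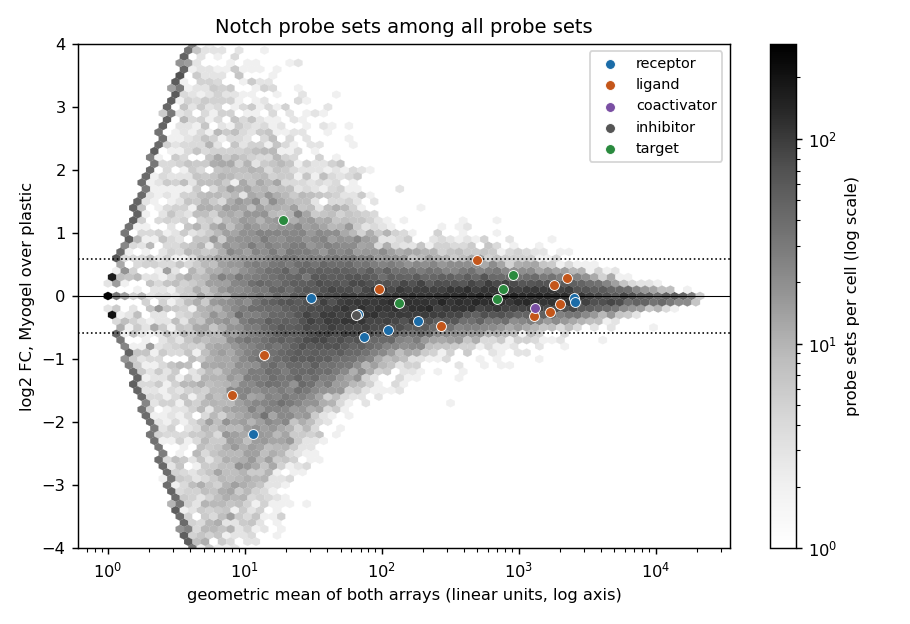
Signal (x axis, geometric mean of both arrays in linear units on a log scale) and the change on Myogel relative to plastic (y axis, log2 FC between -4 and 4), with the 25 Notch probe sets coloured by role and the grey shade giving the number of all probe sets; 1509 of these lie beyond the y axis. The Notch probe sets beyond the dotted lines at FC 1.5 lie at low signals, where the grey cloud is wide.

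The brightness of a probe set depends on its sequence as well as on the RNA, and on plastic the probe sets of JAG1 alone ran from 13.9 to 2044. The genes were therefore not ranked by level. Of the 8 genes with several probe sets, 4 had all of them on the same side of no change, namely NOTCH1, NOTCH2, NOTCH3 and JAG2, each with the lower value on Myogel. For NOTCH3 this did not hold after quantile normalization, loess centring or centring on the median, where 203237_s_at had log2 FCs of 0.27, 0.31 and 0.08, and for NOTCH2 it did not hold after quantile normalization or centring on the median. Other genes came to lie on the higher side. Both HEY1 probe sets did so after quantile normalization (0.12 and 0.008) and loess centring (0.13 and 0.02). All 3 HES1 probe sets did so after centring on the median (0.45, 0.06 and 1.31). As deposited, the share with all probe sets on one side was 36.8% over all 10523 genes with at least 2. It was 52.6% for genes with 2 and 19.4% for genes with 4.

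A list of 64 further genes of the pathway was examined by function, of which 60 were measured, each represented by its brightest probe set. FC 1.5 or more was met upwards by 6 of these genes and downwards by 5, against 9.71% and 17.5% of all genes, and 49 did not reach it. Under quantile normalization, and likewise under loess centring, 6 met it upwards and 2 downwards. The median log2 FC was -0.00047 for the list and -0.07 for all genes. Of the 10 genes described above, 0 were higher and 1, NOTCH3, was lower, a call that these 2 rescalings also removed. The ranges for their signal were exceeded by 2 genes of the list upwards and 1 downwards, while 2.19% and 2.16% of all probe sets lay above and below theirs.

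Among the remaining receptors and ligands, DLL3, a ligand that acts mainly inside the cell, was 2.33-fold lower (73.0 on Myogel, 170 on plastic), below its range of -0.94 to 0.78. Its next brightest probe set, 222898_s_at, had 18.8 on Myogel and 5.36 on plastic. NOTCH4, a receptor of endothelium, had 26.1 on Myogel and 60.0 on plastic, inside the range for its dim signal, and its other probe set had 7.17 on Myogel and 2.98 on plastic. The endothelial markers VWF (30.6 on Myogel, 70.4 on plastic) and CDH5 (10.2 on Myogel, 21.9 on plastic) were also dim and lower, while TEK had 26.6 on Myogel and 8.88 on plastic, and their part in the value of NOTCH4 was not tested. DLK2, the brightest of the remaining receptors and ligands, had 2419.9 on Myogel and 2381 on plastic.

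Genes that modify receptors and ligands showed a few differences at low signal. NEURL1, a ubiquitin ligase for ligands, was 2.25-fold higher (110.6 on Myogel, 49.2 on plastic), above its range of -1.21 to 0.92, and its other probe set had 60.3 on Myogel and 46.5 on plastic. MFNG, a fringe glycosyltransferase that tunes the choice of ligand, was 1.54-fold higher (82.8 on Myogel, 53.95 on plastic), inside its range, while its other probe sets had the lower value on Myogel, 204152_s_at with 35.8 on Myogel and 40.2 on plastic and 213783_at at the floor of 1 on Myogel and with 33.0 on plastic. The brightest genes of these groups were close to even: MIB1, the main ubiquitin ligase for ligands, had 3359 on Myogel and 3684 on plastic, and LFNG had 742 on Myogel and 882 on plastic.

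In their brightest probe sets, the 8 measured genes for the proteases that cut the receptor stayed within FC 1.5, with log2 FCs from -0.45 to 0.31. ADAM10, which makes the first cut after ligand binding, had 3909 on Myogel and 4204 on plastic. The brightest probe sets of the 7 genes of the nuclear complex also stayed within FC 1.5, from -0.37 to 0.38. SNW1, the brightest of them, had 5442 on Myogel and 5621 on plastic, and RBPJ itself had 2271 on Myogel and 2037 on plastic. Dimmer probe sets of the other Mastermind coactivators lay outside their ranges in both directions: 207946_at of MAML3 had 132.6 on Myogel and 52.8 on plastic, 2.51-fold higher, and 235106_at of MAML2 had 51.1 on Myogel and 115 on plastic, 2.26-fold lower.

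Of 8 measured corepressors, TLE2 (91.3 on Myogel, 139 on plastic) and TLE3 (159.6 on Myogel, 239.8 on plastic) were 1.52-fold and 1.503-fold lower, inside their ranges, and neither reached FC 1.5 after quantile normalization (log2 FC -0.48 for both) or loess centring (-0.46 for TLE2 and -0.49 for TLE3). The other probe set of TLE2 had 30.1 on Myogel and 15.4 on plastic. The other 3 probe sets of TLE3 had FC values of 0.98, 0.92 and 0.98. HDAC1, the brightest, had 3691 on Myogel and 4061 on plastic. Among 10 genes for receptor turnover, DTX1, a Deltex ubiquitin ligase, had 23.2 on Myogel and 8.51 on plastic, and DTX3L had 2695 on Myogel and 3090.3 on plastic.

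Among 13 further targets, 3 met FC 1.5 upwards and 1 met it downwards, against 9.71% and 17.5% of all genes. SOX9, a transcription factor of progenitor cells and a Notch target in several tissues, was 1.67-fold higher (370 on Myogel, 221 on plastic), a log2 FC of 0.74 above its range of -0.69 to 0.59. Its other probe set, 202935_s_at, had 297 on Myogel and 211 on plastic, so both pointed the same way. This was the gene of the list whose brightest probe set combined FC 1.5 with a difference of 100 linear units. HEY2 (12.9 on Myogel, 6.06 on plastic), HES6 (8.18 on Myogel, 13.8 on plastic) and HEYL, given above, were near the floor. They lay below the median signal, where 24.2% of all probe sets met FC 1.5 upwards and 40.5% downwards. MYC, the brightest of the targets, had 4222 on Myogel and 3882 on plastic, and NRARP, a feedback inhibitor induced by Notch, had 866 on Myogel and 842 on plastic.

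**Figure D4:**
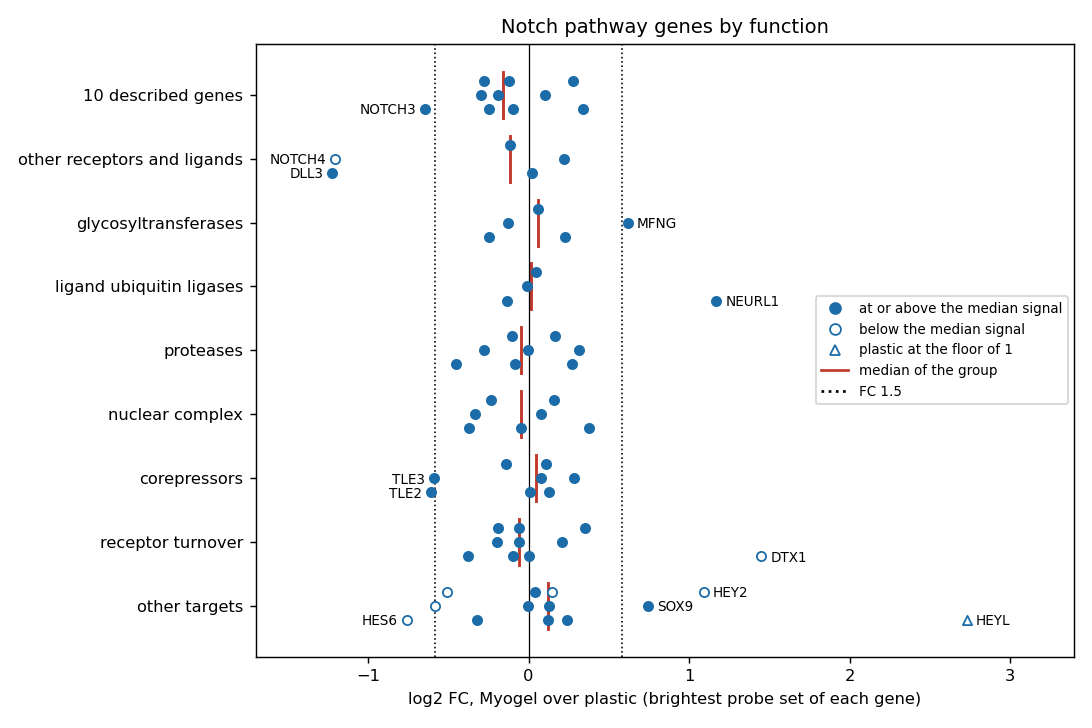
The log2 FC of Myogel over plastic (x axis) for the brightest probe set of each Notch pathway gene, by functional group, with red lines at group medians, dotted lines at FC 1.5 and the names of the genes beyond them. Open points are below the median signal, the triangle (HEYL) is at the floor of 1 on plastic, and most genes lie between the dotted lines, SOX9 (0.74) and NEURL1 (1.17) being among those to the right.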

How the data were processed

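The deposited intensity values were computed by the authors in dChip from scanned Affymetrix arrays, 1 per surface, each with RNA pooled from 3 wells. The values are linear with a floor of 1, at which 4.73% of probe sets lay on Myogel and 4.42% on plastic. For the software version and for any scaling between arrays, details were not given in the sources used here. No detection calls were used.

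FC was computed as Myogel over plastic for 54613 probe sets, leaving out 62 controls. The limit of FC 1.5 is the one named in the paper, which reports a far smaller share of genes past it. Here the ratio alone was used, without a further filter, and 13.8% of probe sets passed upwards and 24.2% downwards. The calls here are therefore looser than those of the paper. The annotation of the platform gives 1 symbol for 41091 probe sets, updated by Entrez identifier through RefSeq (GRCh38.p14), and several for 1801. Every probe set of a described gene is given. In the list of further pathway genes, those with FC 1.5 or more and the brightest of each function are named, represented by their brightest probe set (mean of both log2 values). The genes and lists were chosen with earlier results of these data known. Samples were assigned to surfaces by title. Promoter windows come from RefSeq.

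Alternatives were quantile normalization, loess centring (span 0.3), a median log2 ratio of 0, offsets of 16 and 50, a filter on low signal (higher value at or above the median signal), leaving out _x_at, _s_at and _a_at probe sets, FC 1.2 and FC 2, a difference of 100 linear units, and the mean over or any of the probe sets of a gene. The tools were statsmodels 0.14.6, matplotlib 3.10.9, pandas 2.3.3 and numpy 2.4.6 in Python 3.11.15, and the scripts were tested on simulated data.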

Additional observations from a re-analysis of the deposited data

How the results depend on the processing

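No paired analysis was possible because each surface is 1 array, and for the same reason no replicate could be left out. As deposited, FC 1.5 put 1 of the 25 probe sets higher and 4 lower. These counts became 2 and 2 after quantile normalization and after loess centring, where 231183_s_at of JAG1 passed the limit. Of all 54613 probe sets, 9953 were then higher and 9955 lower after quantile normalization, and 9957 and 9928 after loess centring. With the median log2 ratio set to 0, 2 were higher and 3 lower, beside 8565 and 11566 of all probe sets. With an offset of 16, 1 was higher and 1 lower, and with an offset of 50, 0 were higher and 0 lower, as when 100 linear units were required. With low signals filtered, 0 were higher and 1 lower of 20 probe sets. When probe sets ending in _x_at, _s_at or _a_at were left out, 1 of 7 was higher and 1 lower. By FC 1.2, 4 were higher and 10 lower, and by FC 2, 1 was higher and 2 were lower. For the offsets, the filter on low signal, the left-out endings and FC 2, shares of all probe sets were not computed. The median log2 FC of -0.12 became -0.016 with the median of all probe sets set to 0 and -0.25 when those endings were left out. The number of genes with all probe sets on one side, 4 of 8, became 3 of 8 after quantile normalization and with the median set to 0, 2 of 6 with low signals filtered and 1 of 1 without those endings. HEY1 was among them after quantile normalization and HES1 with the median set to 0, each on the higher side.

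Of the 60 further pathway genes, 6 were higher and 5 lower. Those lower numbered 2 after quantile normalization, 2 after loess centring and 3 with the median set to 0, which moved the list median to 0.11. With each of these scalings 6 were higher. With offsets of 16 and 50, 3 and 2 were higher and 2 and 1 lower. With low signals filtered 3 were higher and 4 lower of 54 genes. Leaving out the same endings, 2 were higher and 9 lower of 47 genes. With 100 linear units required, 1 was higher and 0 lower. By FC 1.2, 11 were higher and 13 lower, and by FC 2, 4 were higher and 2 lower. Averaging the probe sets of a gene put 7 higher and 10 lower, and with any probe set 18 were higher and 23 lower. By the last rule a gene with several probe sets can pass through any of them, also in both directions. Shares of all genes were computed only for FC 1.5 on the values as deposited. The other counts thus have no background beside them and are no result about the pathway. The causes of these shifts in the counts were not tested, other than that filters leave fewer probe sets and stricter limits count fewer. NOTCH3 kept FC 1.5 in 1 of 7 alternatives, low signals filtered, with log2 FCs from -0.64 to -0.34, the last as the mean over probe sets. The sign changed for HEY1 in 2 of 8 alternatives (-0.11 to 0.21), for NOTCH2 in 1 of 7 (up to 0.0092) and for JAG1 in 1 of 7. The mean over probe sets gave log2 FCs of -1.23 for NOTCH1 and -0.33 for JAG1, against 0.28 for the brightest probe set of JAG1, and without those endings HES1 had 1.21, the value of its dim 203393_at.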

Other observations

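In the 60 further pathway genes, dimmer probe sets sometimes differed from the brightest one, and those given here were picked after their values were seen. Of 151 probe sets of these genes, 5 lay above and 7 below the range for their signal, beside 2.19% and 2.16% of all probe sets, and 5 of these 12 also differed by at least 100 linear units. Both dimmer probe sets of ADAM10 were among them, 214895_s_at with 245 on Myogel and 618 on plastic and 202604_x_at with 214 on Myogel and 376 on plastic, while the brightest, 202603_at, had 3909 on Myogel and 4204 on plastic. For APH1A, a subunit of gamma-secretase, 1554417_s_at had 273.5 on Myogel and 479 on plastic, while the brightest probe set had 2873 on Myogel and 2564 on plastic. For SNW1, 215424_s_at had 2089 on Myogel and 3036 on plastic, a log2 FC of -0.54 in a range of -0.38 to 0.38, while the brightest probe set had a log2 FC of -0.05. The fifth was the brightest probe set of SOX9.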
